A study of Mus musculus with 12 samples.

Results

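The 6 genes described here encode the enzymes that make and break down proline: Aldh18a1, Pycr1, Pycrl, Oat, Prodh and Aldh4a1. They were taken by symbol from the count table, all 6 were found among its 55487 genes, and all 6 passed the filter on low counts that left 18134 genes for testing. Mouse embryonic stem cells of the line E14 Tg2a were compared in 4 groups, 2 genotypes in 2 culture conditions. Clones were derived independently, per the series text: 3 carry a knockout of Pcbp1 (KO) and 3 are controls (Scr there, named WT here after the sample titles), and every group holds 3 libraries, 1 per replicate number. Naive WT and naive KO cells grew without serum in N2B27 with LIF, the MEK inhibitor PD0325901 and the GSK3β inhibitor CHIR99021. EpiLC WT and EpiLC KO cells, epiblast-like cells, spent 48 h on fibronectin in N2B27 with bFGF, activin A and KOSR. No source used here states the position of the edit or which clone gave which library, so p-values measure the spread between these libraries.

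Proline is made from glutamate or from ornithine, both of which lead to pyrroline-5-carboxylate (P5C). ALDH18A1 makes P5C from glutamate, OAT makes it from ornithine, and the P5C reductases (such as PYCR1 in mitochondria and PYCRL in the cytosol) turn it into proline. Breakdown runs the other way, with PRODH oxidising proline to P5C and ALDH4A1 oxidising P5C to glutamate. In mouse embryonic stem cells, proline supply is known to affect the balance between the naive state and more advanced, primitive-ectoderm-like states, and ALDH18A1 and PYCR1 are known targets of ATF4, a transcription factor that cells use when amino acids run short.

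The clearest difference was in EpiLCs, where KO cells had less Pycr1 and Aldh18a1 mRNA than WT cells. Their promoters are shown because these are the 2 members that passed the test there, in a comparison that called 15.1% of all genes tested (7.86% lower). RefSeq promoters (GRCm38.p6) were matched for 5 of the 6 members, and the 250 bases before the transcription start are printed 5′ to 3′. Capitals mark matches to either of 2 motifs searched on both strands of the whole promoter window (250 bases before to 50 after the start): TGATGNAA, the core of the composite site of ATF4 and C/EBP factors, and CACGTG, the E-box, which reads the same on both strands.
Pycr1, chr11:120643749-120643998, minus strand: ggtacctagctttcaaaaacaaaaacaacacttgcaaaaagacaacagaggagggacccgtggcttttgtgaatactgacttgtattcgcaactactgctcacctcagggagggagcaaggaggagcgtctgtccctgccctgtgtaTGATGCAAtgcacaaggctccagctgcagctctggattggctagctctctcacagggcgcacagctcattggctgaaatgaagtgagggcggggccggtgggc
Aldh18a1, chr19:40588464-40588713, minus strand: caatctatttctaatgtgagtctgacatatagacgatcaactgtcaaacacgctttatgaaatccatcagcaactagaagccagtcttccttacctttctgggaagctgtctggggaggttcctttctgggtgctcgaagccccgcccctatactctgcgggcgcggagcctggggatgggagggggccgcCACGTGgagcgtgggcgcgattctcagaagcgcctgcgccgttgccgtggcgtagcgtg

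In the Pycr1 promoter TGATGCAA lies 103 to 96 bases before the start (chr11:120643844-120643851), and CACGTG in the Aldh18a1 promoter lies 59 to 54 bases before it (chr19:40588517-40588522). The motifs were thus found in different promoters, and the windows of Oat, Prodh and Aldh4a1 held neither. TGATGNAA occurs in 3.97% of 32851 promoters of this length and in 2.32% of those of the genes tested. CACGTG occurs in 7.15% and 9.46%. Among promoters of the genes called lower in KO EpiLCs the shares were 3.61% of 1414 for TGATGNAA and 10.0% for CACGTG. A match describes the sequence only: binding was not measured here.

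Total counts per library lay between 27146744 and 42204511, and no pair of replicates agreed within sampling noise. Pcbp1, the targeted gene, had 418 to 475 CPM (TMM-normalised counts relative to library size) in naive WT and 295 to 303 CPM in naive KO. It had 512 to 692 CPM in EpiLC WT and 250.3 to 302 CPM in EpiLC KO, so that part of the transcript remained in every KO library. The summed level of 9 naive pluripotency markers was 3913 to 4205 CPM in naive libraries and 183 to 680 CPM in EpiLCs. That of 6 formative and primed markers was 105 to 186 CPM and 2932 to 5069 CPM. EpiLC WT replicate 2 stood apart: it had the highest naive sum (680 CPM against 196 and 202 CPM in the other EpiLC WT libraries), the lowest formative sum, and a first principal component of 79.9 where the other 5 EpiLC libraries lay between 99.3 and 115. The sum of 8 endoderm markers was 2.93 to 11.8 CPM in EpiLC WT and 30.9 to 41.8 CPM in EpiLC KO. That of 7 fibroblast and feeder markers was 8.96 to 17.96 CPM and 18.1 to 32.6 CPM. Among these 7, Col1a2 rose most, from a mean of 3.36 CPM in EpiLC WT to 13.04 CPM in EpiLC KO. Thy1 alone had a lower mean in EpiLC KO (3.17 CPM, against 4.70 CPM in EpiLC WT). No endoderm marker was at 0 in any EpiLC library, while the fibroblast markers Postn and Lum were at 0 in some. In naive cells the fibroblast sum was 2.95 to 3.65 CPM in WT and 4.86 to 8.52 CPM in KO, also without overlap. Most of the naive KO sum was Col1a1, with means of 1.99 CPM in WT and 5.95 CPM in KO. Lum went from 0.041 to 0.467 CPM. Thy1 went the other way, from 0.785 to 0.279 CPM, and the means of Col1a2, Postn and Dcn were also lower in naive KO. The part of these sets of markers in the differences below was not tested. In bulk RNA, fewer cells of a type and less RNA per cell cannot be told apart. The sum of 3 neuroectoderm markers overlapped between genotypes in both conditions. That of 4 mesoderm markers was 5.49 to 9.97 CPM in EpiLC WT and 12.5 to 18.7 CPM in EpiLC KO. Most of it was Eomes, with means of 7.76 and 15.7 CPM, while T, Mixl1 and Mesp1 had means under 1 CPM in both groups. The sum of 3 core pluripotency markers overlapped between naive genotypes. In EpiLCs the core sum was 682 to 851 CPM in WT and 867 to 1026 CPM in KO, without overlap. Dcn was at 0 in all naive KO libraries and Mesp1 in all naive WT libraries.

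**Figure D1:**
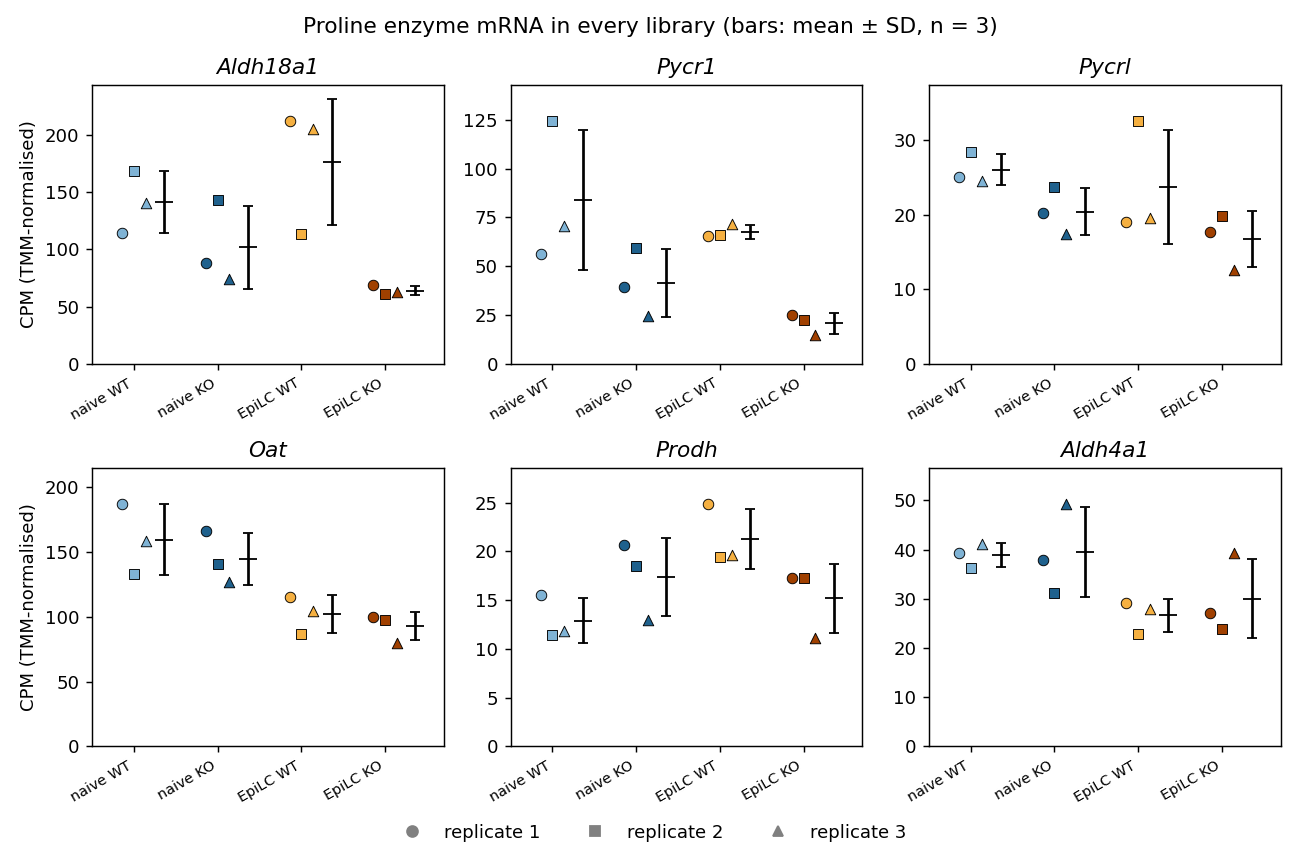
TMM-normalised CPM of the 6 members (y axis, from 0) in each library of the 4 groups (x axis), with circles, squares and triangles for replicates 1, 2 and 3 and the mean ± SD of 3 libraries beside them. Aldh18a1 and Pycr1 lie lower in all EpiLC KO libraries than in any EpiLC WT library, and Oat lies lower in all EpiLCs than in naive cells of the same genotype.

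Aldh18a1 (ENSMUSG00000025007.13, chromosome 19, 40550257 to 40588463, minus strand) encodes the bifunctional enzyme that commits glutamate to proline and ornithine. Its replicates 1, 2 and 3 gave 212, 113 and 205 CPM in EpiLC WT and 68.5, 60.9 and 62.5 CPM in EpiLC KO. The EpiLC groups did not overlap, and replicate 2, which stood apart in its markers, was the lowest WT library. The mean went from 177 ± 55.2 to 64.0 ± 4.03 CPM (SD, n = 3), a log2 fold change of -1.47 ± 0.262 (SE, edgeR quasi-likelihood test, Benjamini-Hochberg adjusted p = 0.0037). It was the 358th lowest of 18134 fold changes. Without EpiLC WT replicate 2 the fold change was -1.71 (adjusted p = 0.000699).

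In naive cells the same gene gave 115, 169 and 141 CPM in WT and 88.5, 143 and 74.0 CPM in KO, and these groups overlapped. The naive change of -0.47 ± 0.257 did not pass (adjusted p = 0.296, 95% interval -1.03 to 0.086). In both genotypes replicate 2 was the highest naive library. The spread between naive KO clones, from 74.0 to 143 CPM, was wider than the whole EpiLC KO group.

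Pycr1 (ENSMUSG00000025140.15, chromosome 11, 120635712 to 120643769, minus strand), the mitochondrial reductase of the last step, gave 65.3, 65.9 and 71.5 CPM in EpiLC WT and 25.1, 22.3 and 14.8 CPM in EpiLC KO. The groups lay well apart, and EpiLC WT replicate 2 was level with the other 2 WT libraries here. The mean went from 67.6 ± 3.41 to 20.7 ± 5.30 CPM, a log2 fold change of -1.70 ± 0.329 (adjusted p = 0.00546), the 218th lowest of all genes tested. Without EpiLC WT replicate 2 it was -1.72 (adjusted p = 0.00838).

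Naive Pycr1 levels were 56.4, 124 and 70.7 CPM in WT and 39.5, 59.4 and 24.7 CPM in KO. WT replicate 2 was the highest of all 12 libraries, and KO replicate 2 overlapped WT replicate 1. The fold change of -1.02 ± 0.322 did not pass over all genes (adjusted p = 0.0669). It passed with DESeq2 (-1.03, adjusted p = 0.0194), with no low-count filter (adjusted p = 0.000102), with the replicate number as a block (-1.04, adjusted p = 0.0362), when KO replicate 2 was left out (-1.41, adjusted p = 0.0267) and when WT replicate 1 was (-1.27, adjusted p = 0.0419). In the other 7 of 12 alternative fits it did not pass, with values up to -0.66 and adjusted p up to 0.222. Over all genes DESeq2 called 2516 and the fit with no filter 2319, against 1673.

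Pycrl (ENSMUSG00000022571.9, chromosome 15, 75916477 to 75921560, minus strand), the cytosolic reductase, gave 25.1, 28.4 and 24.5 CPM in naive WT and 20.2, 23.7 and 17.3 CPM in naive KO. The naive groups did not overlap, but the change of -0.35 ± 0.224 did not pass (adjusted p = 0.374). In EpiLCs it gave 19.0, 32.5 and 19.6 CPM in WT and 17.7, 19.8 and 12.5 CPM in KO, and WT replicate 2 alone lay far above the rest. The EpiLC change was -0.51 ± 0.225 (adjusted p = 0.151, 95% interval -0.99 to -0.019), and it was -0.21 (adjusted p = 0.492) without that library.

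Oat (ENSMUSG00000030934.9, chromosome 7, 132557478 to 132576398, minus strand), the ornithine aminotransferase, gave 187, 133 and 159 CPM in naive WT and 167, 141 and 127 CPM in naive KO. It gave 115, 86.7 and 104 CPM in EpiLC WT and 99.8, 97.8 and 80.1 CPM in EpiLC KO. Genotypes overlapped in both conditions, and KO against WT gave a naive change of -0.14 ± 0.152 (adjusted p = 0.628, 95% interval -0.47 to 0.19) and an EpiLC change of -0.14 ± 0.153 (adjusted p = 0.577, interval -0.47 to 0.19). These intervals hold no fall as large as that of Aldh18a1 in EpiLCs. On leaving the naive state Oat fell by 0.64 ± 0.153 in WT (adjusted p = 0.00348) and by 0.64 ± 0.153 in KO (adjusted p = 0.00319), without overlap between conditions.

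Prodh (ENSMUSG00000003526.12, chromosome 16, 18060357 to 18090203, minus strand), which takes the first step of proline breakdown, was the least abundant member per kilobase in all 4 groups, at 1.65 ± 0.294 CPM per kilobase of exon in naive WT. It gave 15.5, 11.4 and 11.8 CPM in naive WT and 20.7, 18.6 and 12.9 CPM in naive KO. In EpiLCs it gave 24.9, 19.5 and 19.6 CPM in WT and 17.2, 17.2 and 11.1 CPM in KO. Its values thus lay in opposite orders in the 2 conditions, with KO replicate 3 the lowest KO library in each. The naive groups overlapped (0.43 ± 0.224, adjusted p = 0.27), and the EpiLC groups did not (-0.49 ± 0.223, adjusted p = 0.16).

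The difference between these Prodh effects, the interaction of genotype and condition, was -0.92 ± 0.316 and did not pass in the fit of 4 groups (adjusted p = 0.238). Naive and EpiLC libraries of a genotype with the same number deviated together from their group means, so the number was taken to mark a clone. With the clone as a replicate block the Prodh interaction was -0.93 and passed (adjusted p = 0.0374), in a fit that called 0.507% of all genes lower and 1.26% either way. In WT, Prodh rose from naive cells to EpiLCs by 0.73 ± 0.224 (adjusted p = 0.0156), a call that was lost with EpiLC WT replicate 1 left out (adjusted p = 0.0653), and with replicate 2 (0.0607) or replicate 3 (0.0604) of the naive WT group left out. In KO the transition gave -0.19 ± 0.223 (adjusted p = 0.484).

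Aldh4a1 (ENSMUSG00000028737.15, chromosome 4, 139622866 to 139649690, plus strand), the P5C dehydrogenase of breakdown, gave 39.4, 36.2 and 41.2 CPM in naive WT and 37.9, 31.2 and 49.3 CPM in naive KO. It gave 29.2, 22.8 and 28.0 CPM in EpiLC WT and 27.1, 23.8 and 39.2 CPM in EpiLC KO. KO replicate 3 was the highest library of each condition, and genotypes overlapped in both. KO against WT gave a naive change of 0.020 ± 0.198 (adjusted p = 0.971) and an EpiLC change of 0.17 ± 0.199 (adjusted p = 0.607).

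Between conditions Aldh4a1 fell in WT by 0.55 ± 0.200 (adjusted p = 0.035). It did not pass when replicate 2 (adjusted p = 0.102) or 3 (0.0611) of the EpiLC group, or replicate 1 (0.0695) or 3 (0.0899) of the naive group, was left out. In KO it gave -0.39 ± 0.199 (adjusted p = 0.11), and -0.40 (adjusted p = 0.00494) with the clone as a replicate block, which called 30.9% of all genes lower and 60.9% either way. It was -0.63 (adjusted p = 0.0153) without EpiLC KO replicate 3. Of its exon bases 32.5% (1595 bases) are shared with the read-through gene Gm21969 on the same strand, which itself had 0 to 5 reads per library, so the level of Aldh4a1 rests on the remaining bases where reads fitting both genes were left out. None of the other 5 members shares exon bases with another gene.

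Counted over the 6 members, 2 differed between EpiLC KO and EpiLC WT, both lower (7.86% of all genes were called lower). Their median log2 fold change was -0.50, beside 0.00038 over all genes tested. In naive cells 0 of the 6 passed with edgeR, which called 9.23% of all genes. With DESeq2, which called 2516 genes in all, 1 passed. At an unadjusted p under 0.05 edgeR gave 1 of the 6, and the share of all genes at that threshold was not taken. The naive median was -0.25. The interaction was called for 0 of 6 by edgeR, which called 0.381% of all genes, and for 0 of 6 by DESeq2, which called 509 genes. At an unadjusted p under 0.05 edgeR gave 2 of 6, again without a share of all genes at that threshold. The edgeR values were -0.996 ± 0.364 for Aldh18a1 (adjusted p = 0.275) and -0.68 ± 0.452 for Pycr1 (adjusted p = 0.589). It is thus not shown that Aldh18a1 or Pycr1 responded to the loss of Pcbp1 more in EpiLCs than in naive cells. Comparisons here share libraries, so their values are set side by side only.

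**Figure D2:**
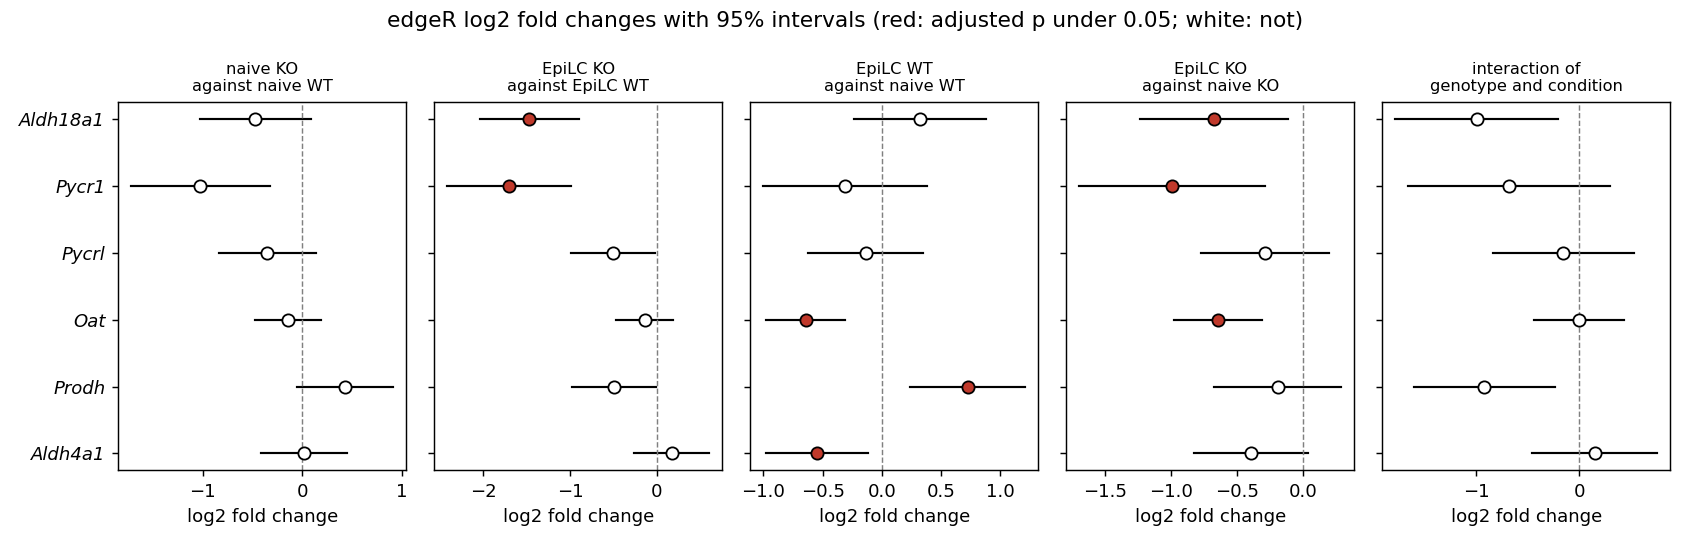
Log2 fold changes (x axis) of the 6 members (y axis) with 95% intervals in 5 comparisons, red where the edgeR adjusted p passed 0.05. Pycr1 and Aldh18a1 are red at -1.70 and -1.47 in EpiLC KO against EpiLC WT, and Oat is red at -0.64 in both transitions.

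From naive cells to EpiLCs, 3 of the 6 members were called in WT, with Prodh higher and Oat and Aldh4a1 lower, where 26.4% of all genes were called higher and 26.3% lower (52.7% either way). Aldh18a1 gave 0.32 ± 0.257 (adjusted p = 0.309), Pycr1 -0.31 ± 0.318 (adjusted p = 0.433) and Pycrl -0.14 ± 0.224 (adjusted p = 0.634). In KO, 3 of the 6 were lower (28.1% of all genes called lower, 55.2% either way): Oat, Pycr1 and Aldh18a1. Pycr1 fell by 0.99 ± 0.324 (adjusted p = 0.0201), although naive KO replicate 3 and EpiLC KO replicate 1 overlapped, and the call ended without EpiLC KO replicate 3 (adjusted p = 0.0807) and when replicate 2 of the naive group was left out (-0.60, adjusted p = 0.128). Aldh18a1 fell by 0.67 ± 0.258 (adjusted p = 0.0418), a call that ended with the clone as a replicate block (adjusted p = 0.0786), with the replicate number as a block (0.0682), with RLE size factors (0.0515), with the GC trend removed (0.0604) and without any KO library but naive KO replicate 3 (0.0505 to 0.279). The fold changes under both blocks, RLE and GC removal were -0.62, -0.66, -0.64 and -0.60, and the value without naive KO replicate 2 was -0.32. Pycrl gave -0.29 ± 0.224 (adjusted p = 0.292).

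Levels of different genes were compared as CPM per kilobase of exon. In naive WT, Oat led at 67.6 ± 11.5 CPM per kilobase, above Aldh18a1 at 34.7 ± 6.66 without overlap. Pycr1 at 21.3 ± 9.09 and Pycrl at 19.4 ± 1.57 could not be separated by their spread, and Aldh4a1 at 7.93 ± 0.507 lay below them. In EpiLC WT, Aldh18a1 at 43.4 ± 13.5 and Oat at 43.3 ± 6.11 overlapped. In EpiLC KO, Oat at 39.2 ± 4.60 lay clear of Aldh18a1 at 15.7 ± 0.990, and Pycr1 at 5.27 ± 1.35 overlapped Aldh4a1 at 6.12 ± 1.65. Over the 3312 exon bases that Aldh4a1 does not share, its EpiLC KO level was 9.07 ± 2.45 CPM per kilobase, above that of Pycr1 without overlap. Members that exchanged places between conditions overlapped in at least 1 of them.

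The mRNA of the enzymes for the entry from glutamate and that from ornithine was compared as the log2 ratio of Aldh18a1 to Oat per kilobase. Neither protein nor the flow through these steps was measured here, so the ratios describe mRNA only. Naive WT libraries had ratios of -1.49, -0.44 and -0.96, and naive KO libraries, which overlapped them, -1.70, -0.76 and -1.56. EpiLC WT libraries had 0.093, -0.40 and 0.19, and EpiLC KO libraries -1.33, -1.47 and -1.14. All EpiLC WT libraries lay above all EpiLC KO libraries, and EpiLC KO lay within the range of naive KO. The log2 ratio of Pycr1 to Prodh, mRNA of an enzyme of synthesis against that of an enzyme of breakdown, was 2.85, 4.44 and 3.57 for naive WT. For naive KO it was 1.92, 2.67 and 1.92. It was 2.38, 2.75 and 2.85 for EpiLC WT, against 1.53, 1.36 and 1.41 for EpiLC KO, so that KO libraries lay below WT libraries in both conditions. The ratio of Pycr1 to Pycrl was -0.39, 0.57 and -0.029 for naive WT, against -0.59, -0.23 and -1.05 for naive KO, which overlapped. It was 0.23, -0.54 and 0.31 for EpiLC WT, against -1.05, -1.39 and -1.31 for EpiLC KO. That of Aldh18a1 to Prodh was 3.82, 4.83 and 4.51 for naive WT, against 3.04, 3.89 and 3.46 for naive KO, which overlapped. It was 4.03, 3.48 and 4.32 for EpiLC WT, against 2.93, 2.76 and 3.43 for EpiLC KO.

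**Figure D3:**
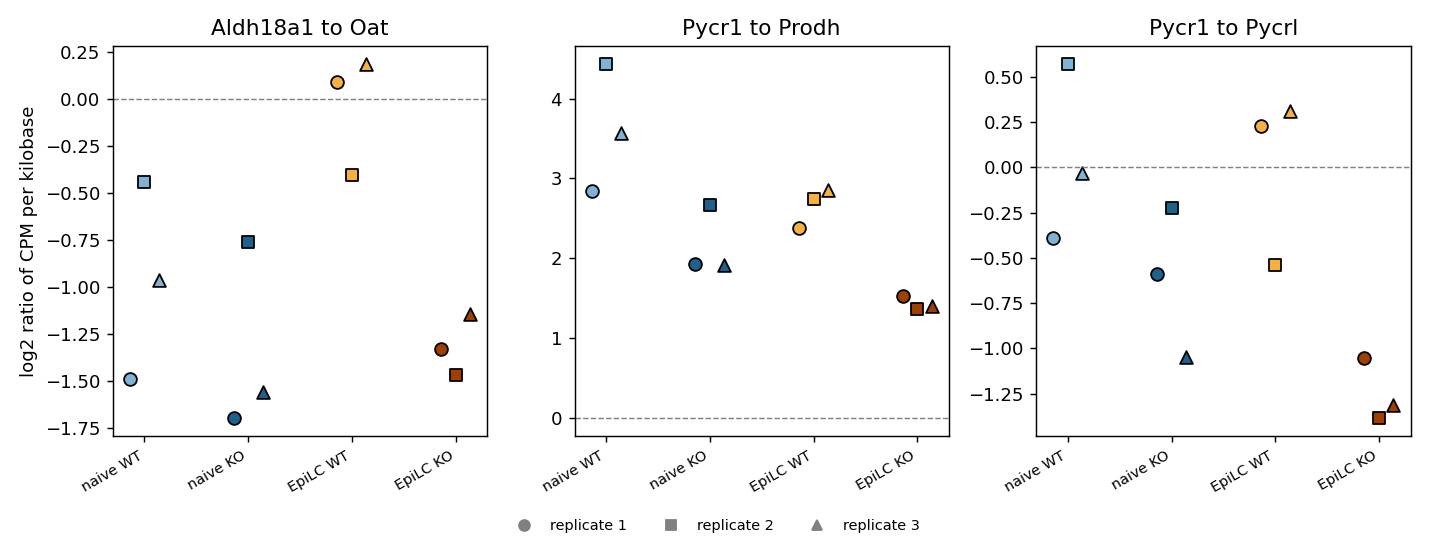
Log2 ratios of CPM per kilobase (y axis) in each library of the 4 groups (x axis), with circles, squares and triangles for replicates 1, 2 and 3, for Aldh18a1 to Oat, Pycr1 to Prodh and Pycr1 to Pycrl. The lowest Pycr1 to Pycrl ratios are those of EpiLC KO, from -1.39 to -1.05, and naive KO replicate 3 lies level with the highest of them at -1.05.

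Atf4, which encodes the transcription factor named above, gave 379, 641 and 460 CPM in naive WT and 335, 394 and 316 CPM in naive KO. It gave 648, 494 and 610 CPM in EpiLC WT and 185, 173 and 194 CPM in EpiLC KO. KO against WT was -0.50 ± 0.167 in naive cells (adjusted p = 0.0825) and -1.66 ± 0.172 in the EpiLC comparison (adjusted p = 0.000172). Naive WT replicate 2, the naive WT library with the most Pycr1 and Aldh18a1, also had the most Atf4 of that group, and EpiLC WT replicate 2 had the least Atf4 and Aldh18a1 of its group. Pycr1 did not follow Atf4 in this way in EpiLCs. In EpiLC KO the library with the most Atf4 (replicate 3) had the least Pycr1. In EpiLC WT replicate 1 had the most Atf4, and its Pycr1 was nearly level with that of replicate 2 (65.3 and 65.9 CPM). Over the 12 libraries log2 CPM of Atf4 had a Pearson r of 0.939 with Aldh18a1 and 0.911 with Pycr1, and of 0.585 with Pycrl, 0.322 with Oat, 0.217 with Prodh and 0.029 with Aldh4a1. After the group means were removed r was 0.806 with Aldh18a1, 0.676 with Pycr1 and -0.14 with Pycrl. These points share libraries, depth and clones, and the values are a description.

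**Figure D4:**
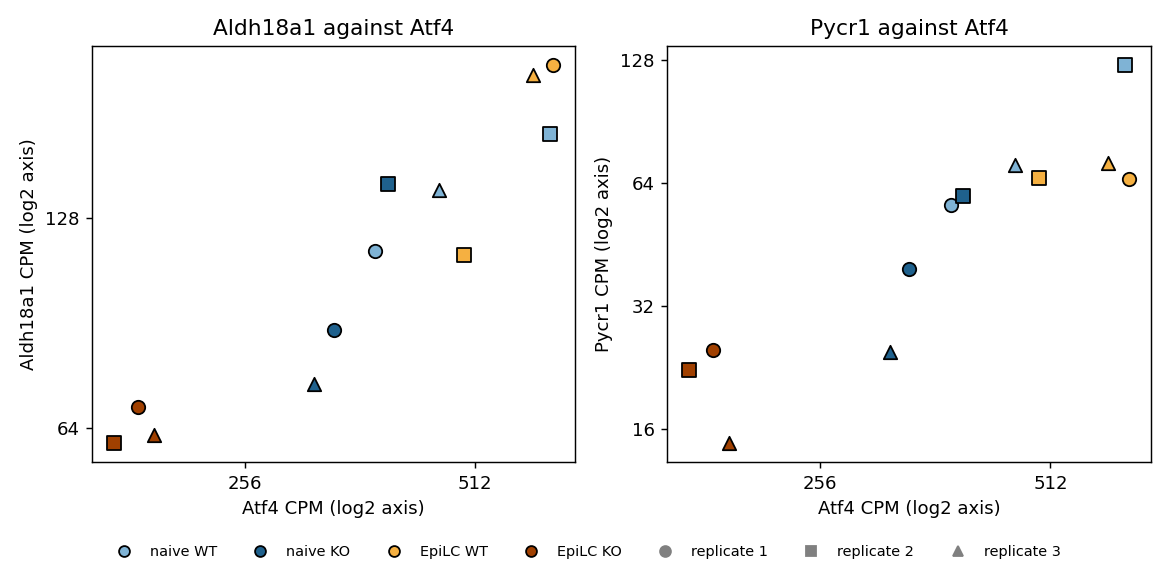
CPM of Aldh18a1 (left) and Pycr1 (right) on the y axis against CPM of Atf4 on the x axis, both log2 axes, with 1 point per library coloured by group. In the panel of Aldh18a1 the EpiLC KO libraries sit lowest on both axes, at 173 to 194 CPM of Atf4.

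The genes whose log2 CPM was most like that of Aldh18a1 over the 12 libraries, among genes with a mean of at least 5 CPM, were Psat1 of serine synthesis (r = 0.98), the tyrosyl-tRNA synthetase Yars (0.978) and the pseudokinase Trib3 (0.969). For Pycr1 they were Mettl22 (0.964), Scarb1, a lipoprotein receptor (0.957), and Cntrob (0.952). For Pycrl they were Fn3krp (0.949), Acot7 (0.927) and Dbi (0.925), and for Prodh they were Dcaf8 (0.949), Lipt1 (0.903) and Armt1 (0.862). For Aldh4a1 they were Fkbp2 (0.957), Mms19 (0.92) and Eml3 (0.917), and for Oat Cdip1 (0.957), Abhd16a (0.956) and Mbd1 (0.955). Between members, Pycr1 and Aldh18a1 had r = 0.889 (0.667 without group means). Pycrl and Aldh4a1 had -0.26 (-0.89 without group means).

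The falls of Pycr1 and Aldh18a1 were larger than the medians of genes lying within 1 Mb of them. Both genes had been singled out by these falls, so the medians are a description and test nothing. The median log2 fold change in EpiLC KO against EpiLC WT was -0.16 for 62 neighbours of Pycr1 and 0.11 for 15 neighbours of Aldh18a1. It was -0.25 for 68 neighbours of Pycrl and -0.22 for 51 neighbours of Prodh, beside changes of -0.51 and -0.49 in those genes. For 13 neighbours of Oat it was 0.49, and for 20 neighbours of Aldh4a1 -0.033, beside changes of -0.14 and 0.17.

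Of 24 other genes around proline (9 close enzymes, 8 genes that use or release proline, 7 transporters), 22 passed the filter, and Arg2 and P4ha3 did not. In EpiLC KO 4 were lower and 0 higher than in EpiLC WT, with a median of 0.0012, where 15.1% of all genes were called and 7.86% were lower. Gls2, a glutaminase, fell by 0.48 ± 0.116 (38.8 ± 3.40 to 27.9 ± 2.98 CPM, SD, n = 3, adjusted p = 0.0169). Slc1a4, a transporter of alanine, serine and cysteine that also takes proline, fell by 1.02 ± 0.261 (116 ± 26.9 to 57.3 ± 11.0 CPM, adjusted p = 0.0219). Slc38a2, the SNAT2 transporter, fell by 0.42 ± 0.123 (1032 ± 30.01 to 770.2 ± 101 CPM, adjusted p = 0.0374). The fourth, Prodh2, the hydroxyproline dehydrogenase, had 12 to 19 reads per EpiLC WT library and 3 to 9 per EpiLC KO library (-1.72 ± 0.522, adjusted p = 0.0499).

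These calls were less firm than those of Pycr1 and Aldh18a1, each of which passed in all 12 alternative fits. Gls2 and Slc1a4 passed in 8 of 12, Slc38a2 in 5 and Prodh2 in 1. With the GC trend removed Gls2 gave -0.30 (adjusted p = 0.109). The libraries whose removal ended a call were EpiLC KO replicates 1 (adjusted p = 0.0729) and 3 (0.0581) for Gls2. For Slc1a4 they were EpiLC KO replicates 2 (0.0647) and 3 (0.0788) and EpiLC WT replicates 1 (0.0624) and 3 (0.0728). For Slc38a2 they were all but EpiLC KO replicate 3 (0.0516 to 0.128), and for Prodh2 all but EpiLC KO replicate 2 (0.0612 to 0.172).

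In naive KO 1 of the 22 was lower and 0 higher (median -0.036, 9.23% of all genes called): Slc36a4, a proline and tryptophan transporter (0.915 ± 0.197 to 0.315 ± 0.116 CPM, -1.53 ± 0.369, adjusted p = 0.0222). The Slc36a4 call was lost when replicate 2 (adjusted p = 0.0743) or 3 (0.0512) of KO, or replicate 3 of WT (0.0804), was left out. Genes that use or release proline did not pass in either genotype comparison (0 of 7 tested in each). Eprs, whose enzyme charges proline and glutamate tRNAs, had 682 ± 29.9 CPM in EpiLC WT and 598 ± 25.1 CPM in EpiLC KO. This change of -0.19 ± 0.0957 was not called (adjusted p = 0.204), and Eprs is named in addition to the naming rule given below.

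Between conditions 14 of the 22 were called in WT (8 higher, 6 lower), where 52.7% of all genes were called, and 17 in KO (9 higher, 8 lower), where 55.2% were. Slc38a2 rose by 2.24 ± 0.129 in WT (adjusted p = 5.07e-08) and by 1.86 ± 0.127 in KO (adjusted p = 1.76e-07). Prep, a prolyl oligopeptidase, fell by 1.83 ± 0.172 (adjusted p = 2.81e-06) and by 1.99 ± 0.173 (adjusted p = 1.28e-06). Slc36a1, a proton-coupled amino acid transporter, fell in WT by 1.49 ± 0.151 (adjusted p = 5.29e-06) and gave -0.96 ± 0.148 in KO (adjusted p = 0.00014). Slc36a4 rose in KO by 2.94 ± 0.362 (adjusted p = 2.24e-05), from 8 to 15 reads per naive KO library. In WT Slc36a4 rose by 1.04 ± 0.328 (adjusted p = 0.0171), which passed in 10 of 13 alternative fits. Got2, the mitochondrial aspartate aminotransferase, rose in WT by 0.84 ± 0.128 (adjusted p = 0.000139) and in KO by 0.58 ± 0.128 (adjusted p = 0.00183). P4ha2, a collagen prolyl hydroxylase subunit, rose in KO by 2.52 ± 0.315 (adjusted p = 2.58e-05) and in WT by 1.97 ± 0.308 (adjusted p = 0.000177). In the interaction 0 of the 22 passed with edgeR, which called 0.381% of all genes. At an unadjusted p under 0.05 there were 5, and the share of all genes at that threshold was not taken.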

How the data were processed

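Polyadenylated RNA was sequenced from the 12 libraries. Raw counts per gene were deposited, which the authors made with featureCounts 2.0.1 on GENCODE vM25, per the file headers. Its command sets nothing for strandedness, pairs, or reads that map or overlap more than once. The submitters' processing notes list STAR, fastp, DESeq2 and FastQC, no version given, with GRCm38/mm10. The deposited exon length served for CPM per kilobase.

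Symbols came from a name table matched by gene ID without version (55141 of 55487 genes). Counts were TMM-normalised in edgeR 4.0.16 (R 4.3.3). filterByExpr (minimum count 10, minimum total count 15) kept 18134 genes. All 12 libraries entered a single quasi-likelihood fit with 1 mean per group and 8 residual degrees of freedom. On simulated data for EpiLC KO against EpiLC WT (18134 genes), 23 of 50 genes lowered to 0.5 times and 28 of 50 raised 2 times were called, and 41 of 50 at 0.25 times and 47 of 50 at 4 times, with 3 false calls. Every simulated group had the same mean apart from these changes, the spread followed the fitted trend, and libraries were drawn independently. These rates therefore need not hold for the real libraries. Calls used a Benjamini-Hochberg adjusted p of 0.05 over all genes tested. The SE is the fold change divided by the square root of F. Likeness used log2 CPM (prior count 2).

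Alternatives were DESeq2 1.42.0, RLE size factors, no low-count filter, only the groups compared, replicate blocks, each library left out and, chosen after seeing the data, a GC correction (transcript GC content for 99.9% of genes). The members, lists, tests and naming rule (all members, Pcbp1, Atf4, up to 4 called list genes per comparison with the smallest adjusted p, and 3 genes most like each member) were chosen with earlier results of these data known. A gene of the list of other pathway genes is not reported here and was left out of its counts. Same-numbered naive and EpiLC libraries of a genotype correlated at 0.145 to 0.264 in their deviations from group means, and same-numbered libraries of different genotypes in the same condition at -0.27 to 0.0037, so the number was taken to mark the clone within a genotype.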

Additional observations from a re-analysis of the deposited data

How the results depend on the processing

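The EpiLC falls of Pycr1 (-1.86 to -1.51) and Aldh18a1 (-1.71 to -1.32) passed in all 12 alternatives, and the count of members called there was 2 in each. Oat passed in all 13 alternatives of both transitions. Of 408 values of the members under alternatives, 358 kept direction and side of the threshold, 18 lost a call, 10 gained 1 and 22 changed sign. In naive KO against WT the count went from 0 to 1 (Pycr1) with DESeq2, with no low-count filter and with the replicate number as a block, and ranged from 0 to 1 with a library left out. With a library left out the counts of 3 in the transitions ranged from 1 to 2 in WT and from 1 to 3 in KO. The interaction count went from 0 to 1 with the clone as a replicate block (Prodh) and with no low-count filter (Aldh18a1, adjusted p = 0.00464). The block changed no other call of the members than these and those given for Aldh18a1 and Aldh4a1 in the KO transition, where the replicate number as a block gave the same (adjusted p of 0.0682 and 0.0301). Across all genes, no filter called 564 in the interaction, DESeq2 509, the clone block 228 and the replicate number as a block 30, against 69. With a library left out the interaction count was 3 to 149. All genes called in naive KO against WT numbered 1673, with 2516 by DESeq2 and 678 to 1744 with a library left out, and in EpiLC KO against WT 2734, with 1375 to 3117.

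None of the values that changed sign was called. The Oat interaction was -2.9e-05 ± 0.202 (SE) in the fit of 4 groups. It was 0.018 with DESeq2, 0.018 with RLE, 0.016 with the GC trend removed and 0.0031 with the replicate number as a block, and -0.10 to 0.16 with a library left out. The naive genotype difference of Aldh4a1, 0.020 ± 0.198 in the fit of 4 groups, was -0.0049 with that block and -0.21 to 0.14 with a library left out. The left-out ranges also crossed 0 for Aldh4a1 in EpiLCs (-0.067 to 0.31) and in the interaction (-0.086 to 0.39), for Pycrl in the WT transition (-0.43 to 0.0030) and the interaction (-0.30 to 0.14), and for Pycr1 in the WT transition (-0.54 to 0.068). The cause was not tested. Each member had 355 reads or more per library.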
